A study of Mus musculus with 20 samples.

Results

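The question addressed here is whether the change in cardiac microRNAs (miRNAs) with CIH differs between infarcted and uninfarcted mouse hearts. For each miRNA 2 shifts were taken as differences of group means of log2(RPM + 1). RPM is the reads of a miRNA per 1000000 reads summed over the entries of its library. Some pairs of entries, such as miR-1a-3p and miR-1b-5p, repeat the same reads, and such reads enter the sum for both. The uninfarcted shift is CIH minus sham and the infarcted shift is MI+CIH minus MI, and the interaction is the infarcted shift minus the uninfarcted one. The miRNAs described are those whose 2 shifts have opposite signs. They numbered 245 of the 360 miRNAs that reached 5 RPM in 4 or more of the 20 libraries, out of 1545 entries in the table. Of the 245, 217 were lower with CIH in uninfarcted hearts and higher with CIH in infarcted hearts, and 28 were higher in the first setting and lower in the second. The 2 directions are called the common and the reverse pattern.

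The 20 small RNA libraries came from hearts of C57BL/6J mice, an inbred laboratory strain: 5 sham hearts, 4 hearts labelled MI (myocardial infarction), 4 labelled CIH and 7 labelled MI+CIH. The labels give CIH as letters only. The letters are taken to mean chronic intermittent hypoxia, an exposure in which inhaled oxygen drops briefly again and again as it does in sleep apnoea, since the series title names sleep breathing disorders and remodelling after MI. The animals' age and sex, the length of the exposure, the time after infarction and the part of the heart taken are not given in the sources used here. Each library is taken as 1 heart. The labels do not say that hearts were handled separately, so p-values measure the spread between these libraries, which may be partly technical.

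miRNAs are short RNAs that guide the silencing complex to messenger RNAs, which they recognise mainly through the seed near their 5′ end. Working heart muscle is rich in miR-1 and carries miR-208 and miR-499 in the introns of myosin genes. Scar formation after an infarct brings in fibroblasts, which are rich in miR-21, miR-199a and miR-214, and leukocytes, which carry miR-223, miR-142 and miR-146.

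The sequences shown are those on which the description turns. All are mature mouse miRNAs from RefSeq (GRCm38.p6), matched by name for 306 of the 360 tested, with the seed (bases 2 to 8 from the 5′ end) in capitals. The first group holds the miRNAs described most closely among those that were lower with CIH in uninfarcted and higher with CIH in infarcted hearts.
miR-21a-5p: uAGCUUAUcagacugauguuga
miR-199a-5p: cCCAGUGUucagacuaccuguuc
miR-214-3p: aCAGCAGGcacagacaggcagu
miR-140-3p: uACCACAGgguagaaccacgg
miR-146b-5p: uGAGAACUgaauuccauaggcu
miR-223-3p: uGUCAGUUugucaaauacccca
miR-210-3p: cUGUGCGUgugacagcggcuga
miR-34b-3p: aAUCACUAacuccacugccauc
miR-34c-3p: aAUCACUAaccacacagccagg
The 3p arms of miR-34b and miR-34c share the seed AUCACUA. The next 6 are the tested miRNAs with the seed AGCAGCA, and the 4 after them those with the seed AAAGUGC. All 10 had this same pattern.
miR-15a-5p: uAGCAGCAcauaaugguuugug
miR-15b-5p: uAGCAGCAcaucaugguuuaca
miR-16-5p: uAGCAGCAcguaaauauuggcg
miR-195a-5p: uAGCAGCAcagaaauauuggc
miR-322-5p: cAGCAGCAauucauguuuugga
miR-497a-5p: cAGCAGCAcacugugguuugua
miR-17-5p: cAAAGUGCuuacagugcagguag
miR-20a-5p: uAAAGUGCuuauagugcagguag
miR-93-5p: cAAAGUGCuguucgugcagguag
miR-106b-5p: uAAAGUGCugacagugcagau
The last 3 had the reverse pattern, higher with CIH in uninfarcted and lower in infarcted hearts.
miR-499-5p: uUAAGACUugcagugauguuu
miR-128-3p: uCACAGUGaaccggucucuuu
miR-149-5p: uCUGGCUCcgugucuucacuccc

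In the reference annotation (GENCODE M21 on GRCm38; the submitters' processing notes give mm10), miR-21a-5p lies at chr11:86584120-86584141 on the minus strand, within an exon of the protein-coding gene Vmp1. miR-199a-5p has a copy at chr1:162217844-162217866 and miR-214-3p lies at chr1:162223438-162223459, both on the plus strand in an exon of Dnm3os, the antisense transcript inside Dnm3. A second copy of miR-199a-5p is at chr9:21496537-21496559, on the strand opposite to Dnm2 in an intron. miR-140-3p is at chr8:107551288-107551308 in Wwp2, on that gene's strand and within an annotated exon. The hairpins of miR-34b and miR-34c lie on chromosome 9 in an intron of Btg4, on the opposite strand. miR-499-5p is at chr2:155622893-155622913 in an intron of Myh7b, a myosin heavy chain gene, and on its strand. miR-149-5p is at chr1:92850381-92850403 in an intron of Gpc1, and the copies of miR-128-3p are in introns of R3hdm1 and Arpp21. miR-223-3p is at chrX:96242884-96242905 in an exon of the transcript F630028O10Rik, and no gene of this annotation covers the hairpin of miR-210.

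Depth ran from 1991323 to 18138415 miRNA reads per library, with repeated reads counted in both entries. A count of 0 reads allows up to 0.165 to 1.51 RPM, depending on the library (3 reads, counting error only). The muscle miRNA miR-1a-3p stood at 189056 to 272753 RPM in the sham hearts and was present in all 20 libraries, as was miR-208a-3p. Clustering on log2(RPM + 1), with the number of sets fixed at 3, gave sets of libraries that the labels do not mention. Clustering on the arm ratios of 86 hairpins, also cut at 3 sets, put 20 of 20 into the same sets. The ratios are computed from the same values, so their match is not independent support. Set A holds all sham and all CIH hearts, MI 2 and MI+CIH 1. Set B holds 2 MI hearts (1 and 3) with MI+CIH 2 to 5. Set C holds MI 4 with MI+CIH 6 and 7. Both infarcted groups are spread over all 3 sets, while sham and CIH occur only in set A, so each shift compares groups that overlap in set. Libraries that stood apart within their groups were sham 1 and CIH 3, which held 11 and 10 of the 26 outlying values among the named miRNAs, and MI 2, the only MI heart of set A. Key values are therefore repeated with a set term in the fit, and without sham 1 and MI 2. The sets were drawn from the same values that are tested, so p-values with the set term are likely too small.

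No miRNA passed the test of the interaction: 0 of 360 (0%) had a limma adjusted p below 0.05 (Benjamini-Hochberg), and the smallest adjusted p was 0.880. At an unadjusted p below 0.05 there were 14, and 13 of them had opposite shifts, 12 lower with CIH in uninfarcted and higher in infarcted hearts. On the recovered reads edgeR called 0 (13 at an unadjusted p below 0.05) and DESeq2 called 0 (18). The 2 shifts taken alone gave no call in the limma fit either, 0% of 360 for MI+CIH against MI (17 unadjusted) and 0% for CIH against sham (1 unadjusted). edgeR called 0 in both, and DESeq2 called 0 and 1, the latter being miR-363-3p, whose shifts have the same sign. With the library set as a term 66 miRNAs had an unadjusted p below 0.05, 62 of them with a positive interaction, and the smallest adjusted p was 0.185. The limit given above for p-values with the set term applies to this count. A p that misses the threshold does not show that the 2 shifts were equal, and what follows describes levels and differences that did not pass.

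Over the 360 miRNAs the median uninfarcted shift was -0.21 and the median infarcted shift 0.41, and the interaction was positive for 292 and negative for 68. A shift of 1 corresponds to a 2-fold difference in RPM + 1, so differences of miRNAs at a few RPM are understated. Opposite shifts of at least 0.5 in both settings were found in 51 miRNAs, and in all 51 the level was lower with CIH in uninfarcted and higher in infarcted hearts. The remaining 115 miRNAs had the same sign in both settings, 72 positive and 43 negative. Across the 360 miRNAs the shifts in the 2 settings correlated weakly (Pearson r = -0.12, a description over miRNAs that share libraries). Near the sign limit the rule separates equal values: the smallest absolute shift was 0.0022 among the 245 (miR-99b-5p) and 0.0018 among the other 115 (miR-30c-2-3p).

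**Figure D1:**
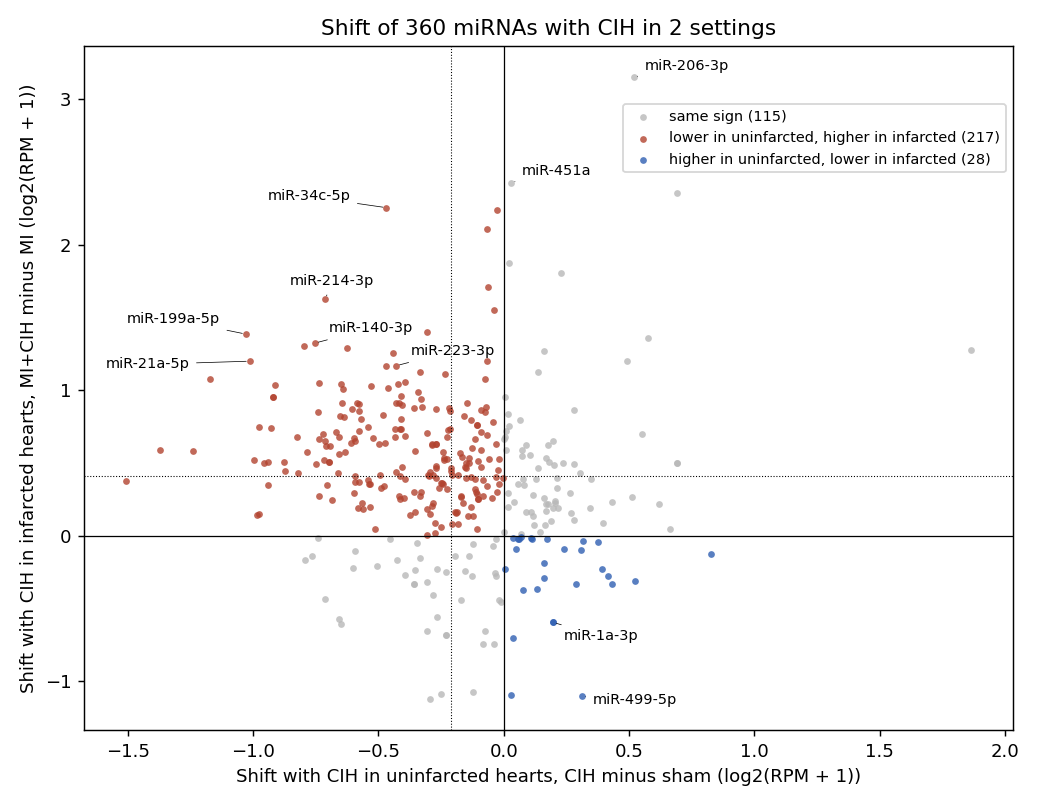
Shift with CIH in uninfarcted hearts (horizontal, CIH minus sham) against that in infarcted hearts (vertical, MI+CIH minus MI) for 360 miRNAs, both in log2(RPM + 1); dotted lines mark the medians, -0.21 and 0.41. The 217 miRNAs at the upper left outnumber the 28 of the lower right, with miR-21a-5p and miR-199a-5p far from both axes and miR-499-5p the lowest of those labelled.

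RPM values are shares of a library, and the split between the 2 directions changed with how the libraries were scaled. Scaling by the median of ratios moved the median interaction from 0.63 to -0.02, left 230 miRNAs with opposite shifts and split them 110 to 120 in place of 217 to 28. TMM scaling gave 109 and 116. Without sham 1 and MI 2 the split was 141 to 73, and with the library set as a term 209 to 42. Removal of MI 2 alone, with no rescaling, gave 156 to 69. It took the median infarcted shift from 0.41 to 0.03 and the median interaction from 0.63 to 0.23. The cause of these moves was not tested. With each shift taken relative to its median over the 360 miRNAs, 218 had opposite signs, 109 in each direction. The direction of 87 of the 217 and 18 of the 28 was the same under 6 alternatives: a pseudocount of 5 RPM, both scalings, the set term, removal of sham 1 and MI 2, and infarcted hearts of set B only. Of these, 82 and 5 also kept it when each of the 20 libraries was left out in turn. Among the 31 miRNAs with the common pattern that a rule or a later choice singled out for description, 20 kept both signs without each library in turn and 11 did not. Without sham 1 alone 4 lost it: miR-34c-5p, miR-34b-3p, miR-34c-3p and miR-24-3p. The 5 with the reverse pattern that kept it throughout were miR-1a-3p with its second entry miR-1b-5p, miR-499-5p, miR-128-3p and miR-22-5p. For the last 2 the sign was barely kept: the infarcted shift of miR-22-5p was -0.0014 without MI+CIH 7, and that of miR-128-3p was -0.02 without MI 3.

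**Figure D2:**
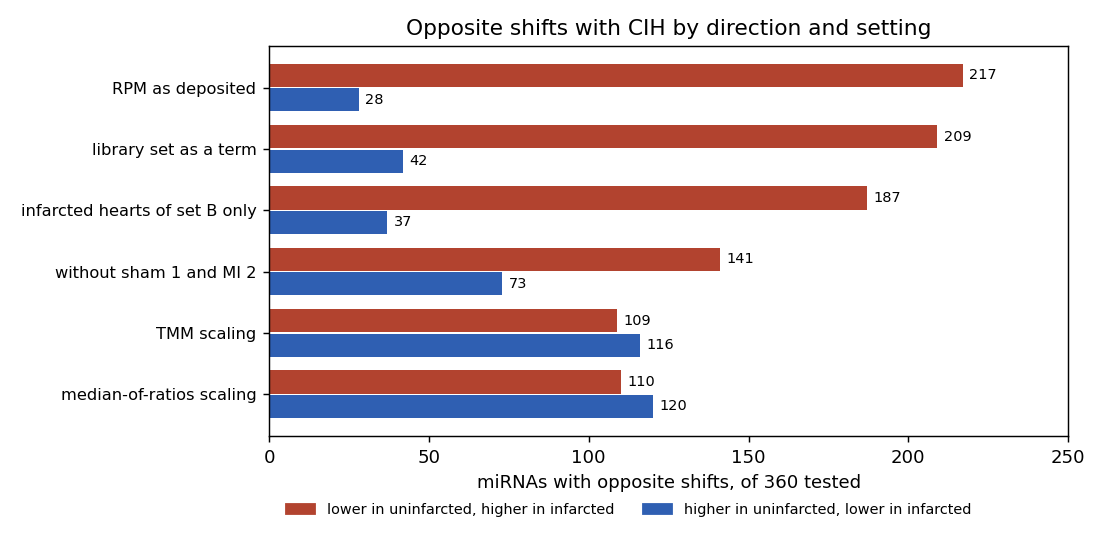
Number of miRNAs, of 360 tested, with opposite shifts in each direction under 6 settings (bars start at 0). The deposited RPM gave 217 and 28, and the median-of-ratios scaling 110 and 120.

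The miRNAs enriched in fibroblasts and matrix had the widest separation among the lists with at least 5 members tested. Of 8 tested, 7 were lower with CIH in uninfarcted and higher in infarcted hearts and 1, miR-212-5p, had shifts of the same sign, against 217 of 360 overall. Their median shifts were -0.86 and 1.04 and the median interaction 2.09, against 0.63 over all 360; 0 of the 8 passed the test. The median interaction was 2.01 with the set term, 1.43 with median-of-ratios scaling and 0.94 without sham 1 and MI 2, and 7 of the 8 stayed positive in each. Because these are whole-tissue libraries, fewer cells of a type and less RNA per cell cannot be told apart.

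miR-21a-5p, raised in fibroblasts of injured hearts and known for promoting their survival, had the smallest unadjusted interaction p. It stood at 100570.5, 17878, 23457, 28616 and 21109 RPM in sham hearts 1 to 5, and at 13116, 14897, 16956 and 15319 RPM in the CIH hearts. In the MI hearts it was at 20197, 17547, 15334 and 7732 RPM, and the 7 MI+CIH hearts ran from 8888 to 108142 RPM, with a median of 44349 RPM. All 4 CIH hearts were below every sham heart, a separation found in 10 of 360 miRNAs in this direction (2.78%) and in 0 of 360 (0%) in the other. The MI and MI+CIH ranges overlapped, with MI+CIH 4 and 6 low, and 6 of the 7 MI+CIH hearts were above every MI heart of their own set. Sets A and C hold a single MI heart each, and how many of the 360 miRNAs did as much is not given here. The shifts were -1.01 ± 0.63 (SE) and 1.20 ± 0.59, and the interaction was 2.21 ± 0.87 (limma adjusted p = 0.880). It was 2.35 with the set term and 1.88 without sham 1 and MI 2. Without sham 1 alone, the highest sham heart, the uninfarcted shift was -0.58.

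miR-199a-5p and miR-214-3p are known as fibroblast miRNAs. The hairpin of miR-214 and 1 of the 2 copies of miR-199a lie in Dnm3os, and reads of miR-199a-5p cannot be assigned to either copy. The sham hearts had 590.2, 77.6, 126, 53.3 and 67.5 RPM of miR-199a-5p and the CIH hearts 48.8, 81.0, 29.3 and 86.7 RPM. It was at 209, 100.4, 107 and 641 RPM in the MI hearts and at 55.7 to 2035 RPM, with a median of 649 RPM, in the MI+CIH hearts. Sham 1 was above all other uninfarcted hearts, MI+CIH 4 was the low one of its group, and both comparisons overlapped. Its interaction was 2.41 ± 1.18 (SE; limma adjusted p = 0.880), and 1.51 without sham 1 and MI 2. Its uninfarcted shift was -1.03, but -0.44 without sham 1.

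For miR-214-3p the sham hearts had 198, 35.5, 21.0, 35.3 and 32.4 RPM and the CIH hearts 33.0, 29.9, 23.2 and 22.4 RPM. The MI hearts had 708, 21.3, 1135 and 85.1 RPM and the MI+CIH hearts 129.5 to 2407 RPM, with a median of 643 RPM. MI 2 lay within the range of the uninfarcted hearts, far below MI 1 and MI 3. The shifts were -0.71 and 1.62 and the interaction 2.34 ± 1.41 (SE), which became 0.75 without sham 1 and MI 2. Without sham 1 the uninfarcted shift was -0.18, and without MI 2 the infarcted shift was 0.57. Its other arm, miR-214-5p, had an interaction of 2.25 ± 0.96, and miR-199a-3p one of 1.65 ± 0.96. These arms leaned on the same hearts: without MI 2 the infarcted shifts were 0.35 and 0.34, and without sham 1 the uninfarcted ones -0.77 and -0.27.

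miR-140, embedded in Wwp2 and best known from cartilage, followed the same pattern on both arms. The sham hearts had 4026, 1330.1, 1707, 1355 and 1252 RPM of miR-140-3p, and the CIH hearts 1448, 1454, 626 and 839 RPM. In the MI hearts it was at 4514, 1425, 3305 and 1009 RPM, and in the MI+CIH hearts at 1624 to 16132 RPM, with a median of 5394 RPM. All 4 CIH hearts were below the sham mean and 6 of 7 MI+CIH hearts were above every MI heart of their set, though the ranges overlapped in both settings. As for miR-21a-5p, a single MI heart stands for set A and for set C. The interaction was 2.08 ± 0.83 (SE; limma adjusted p = 0.880) for miR-140-3p and 1.59 ± 0.76 for miR-140-5p. They were 1.57 and 1.49 without sham 1 and MI 2. The uninfarcted shift of miR-140-3p was -0.75, and -0.45 without sham 1. miR-455-5p, another cartilage miRNA, had shifts of -0.91 (-0.50 without sham 1) and 1.03. Its partner arm miR-455-3p was higher with CIH in both settings (0.14 and 1.13), but its infarcted shift was 0.33 without MI 2.

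**Figure D3:**
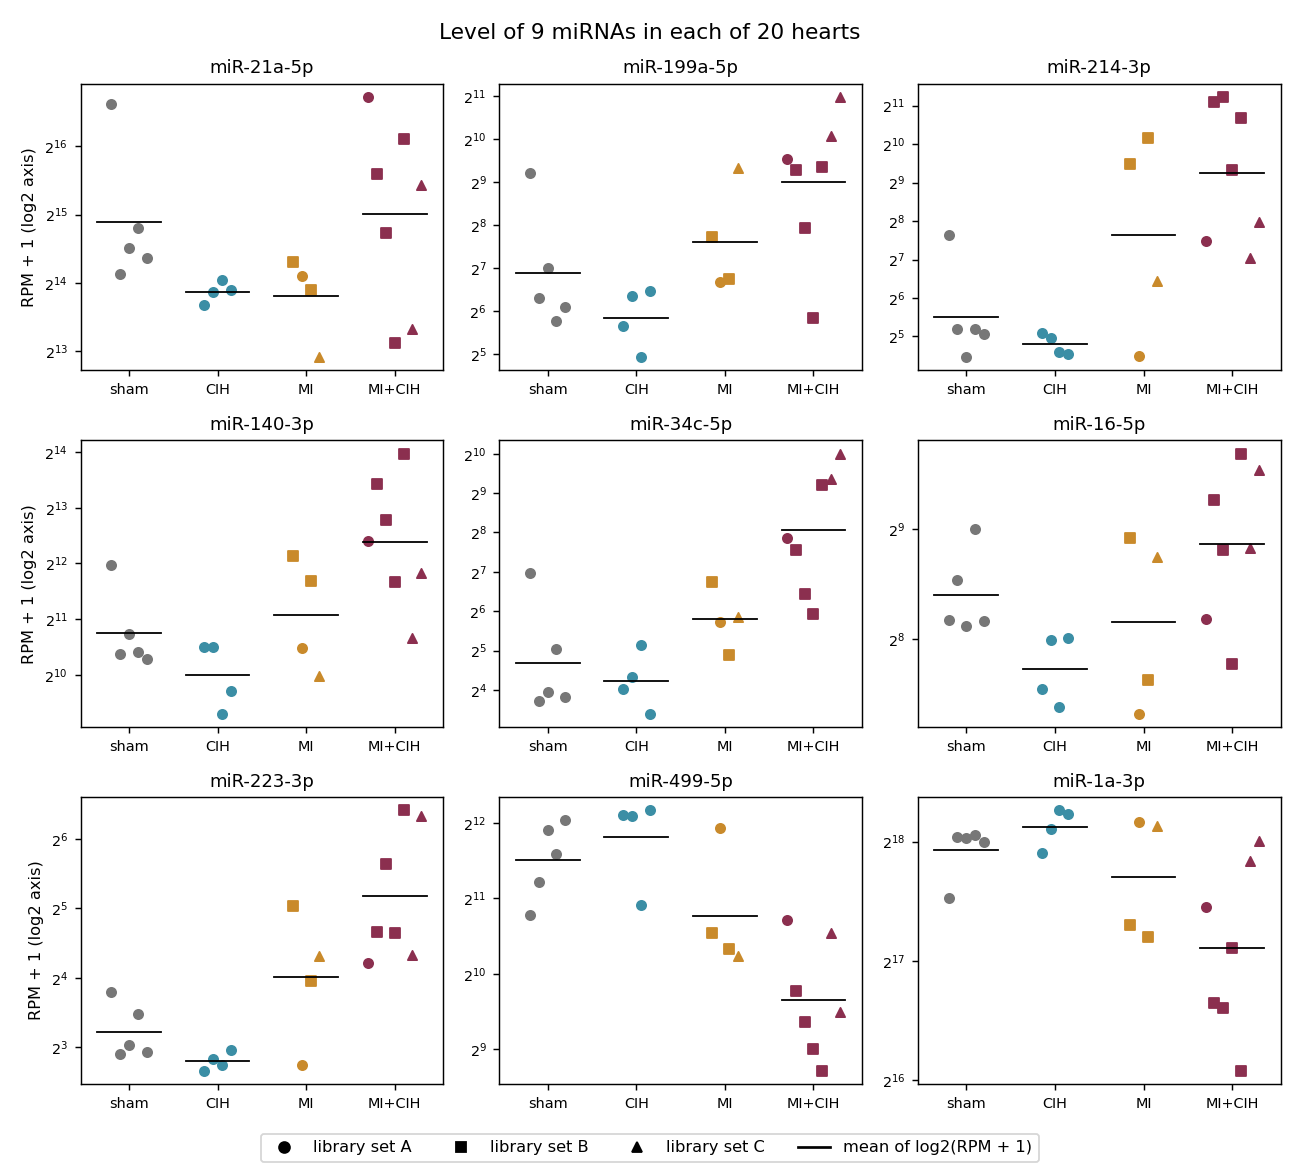
Level of 9 miRNAs in each heart as RPM + 1 on a log2 axis, by group; the symbol gives the library set and the line the mean of log2(RPM + 1). Sham 1 is the high sham heart for miR-21a-5p, miR-199a-5p, miR-214-3p, miR-140-3p and miR-34c-5p, and all 7 MI+CIH hearts are below the MI mean for miR-499-5p.

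The miR-34 family, known as a target of p53 and as a brake on the cell cycle, had the common pattern in all 4 of its tested arms on the deposited scale. 0 of the 4 kept it under all 6 alternatives, and relative to the medians over all miRNAs 1 of the 4 had opposite shifts. The family's median shifts were -0.27 and 2.17, so nearly all of its median interaction of 2.22 came from the infarcted hearts. Sham hearts held 125, 12.1, 14.4, 31.6 and 13.0 RPM of miR-34c-5p, and CIH hearts 15.4, 19.2, 34.5 and 9.45 RPM. MI hearts were at 106, 52.0, 28.3 and 56.6 RPM and MI+CIH hearts at 59.8 to 1027 RPM, with a median of 233 RPM. The uninfarcted groups were intermingled apart from sham 1, and 2 MI+CIH hearts lay within the MI range. The interaction of miR-34c-5p, 2.72 ± 1.09 (SE; limma adjusted p = 0.880), was 2.70 with the set term, 1.98 with median-of-ratios scaling and 2.13 without sham 1 and MI 2. Its uninfarcted shift of -0.47 turned to 0.10 without sham 1, so that both shifts were then positive.

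The 3p arms of the same cluster were scarce in uninfarcted hearts, at 0.135 to 1.73 RPM of miR-34b-3p in sham and 0.417 to 2.71 RPM in CIH hearts. In these the uninfarcted shifts of miR-34b-3p and miR-34c-3p (-0.03 and -0.07) were close to 0, and the sign in that setting rests on a few reads. The MI hearts had 12.5, 1.38, 4.13 and 4.91 RPM of miR-34b-3p, and the MI+CIH hearts 3.0 to 57.9 RPM, with a median of 35.2 RPM. The infarcted shift of miR-34b-3p was 2.24 ± 0.63. With the set term it was 1.97 and passed the limma test (adjusted p = 0.0284), although the interaction did not. Since the sets were drawn from the tested values, that p is likely too small. For miR-34a-5p, the most widely expressed member, the shifts were -0.59 and 0.37 and the interaction 0.96 ± 0.78. The infarcted shift of miR-34a-5p turned to -0.14 without MI 2.

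Of 9 leukocyte miRNAs tested, 7 had the common pattern, against 217 of 360 over all miRNAs. The reverse was found in 1 (miR-150-5p, a lymphocyte miRNA) and the same sign in both settings in 1 (miR-342-3p), and 0 passed the test. The list's median shifts were -0.31 and 0.95. Its median interaction was 1.27, but 0.60 with median-of-ratios scaling and 0.51 without sham 1 and MI 2. Under all 6 alternatives 3 of the 9 kept their direction, and relative to the medians over all miRNAs 4 had the common pattern. miR-223-3p, a neutrophil and macrophage miRNA, was the only miRNA of 360 with all 4 CIH hearts below the sham mean and all 7 MI+CIH hearts above the MI mean. Its levels were 12.9, 6.48, 7.14, 10.2 and 6.59 RPM in the sham and 5.31, 6.09, 5.7 and 6.75 RPM in the CIH hearts. They were 31.9, 5.66, 14.5 and 18.8 RPM in the MI hearts and 17.5 to 84.3 RPM, with a median of 24.3 RPM, in the MI+CIH hearts. The ranges overlapped slightly in the uninfarcted hearts and widely in the infarcted ones. Its interaction was 1.60 ± 0.74 (SE; limma adjusted p = 0.880), and 1.03 without sham 1 and MI 2. The infarcted shift was 1.17, and 0.74 without MI 2.

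miR-146b-5p and miR-146a-5p, which are induced by inflammatory signalling through NF-kappaB and dampen it, share a seed. The sham hearts had 194, 96.0, 84.0, 84.2 and 76.7 RPM of miR-146b-5p and the CIH hearts 57.9, 76.0, 149.7 and 64.9 RPM. It stood at 473, 103, 314 and 323 RPM in the MI and at 403 to 1628 RPM, with a median of 577 RPM, in the MI+CIH hearts. Each of the 7 MI+CIH hearts was above the MI mean, and MI 2 was the low MI heart. The interaction was 1.71 ± 0.76 for miR-146b-5p and 1.37 ± 1.18 for miR-146a-5p. Without sham 1 and MI 2 it was 1.02 and 0.12. The uninfarcted shift of miR-146b-5p, -0.31, was -0.07 without sham 1. The infarcted shift of miR-146a-5p, 0.96, turned to -0.07 without MI 2.

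miR-210-3p, the miRNA most directly induced by hypoxia-inducible factor, had no higher level with CIH in uninfarcted hearts. Sham hearts had 11.9, 5.26, 7.33, 4.21 and 4.83 RPM and CIH hearts 4.47, 4.76, 0.967 and 6.41 RPM. MI hearts had 23.8, 5.94, 13.6 and 17.4 RPM and MI+CIH hearts 5.52 to 69.0 RPM, with a median of 17.8 RPM. The shifts were -0.65 ± 0.63 (SE) and 0.82 ± 0.59, and the groups overlapped in both settings. Its interaction of 1.48 ± 0.86 did not pass the limma test (adjusted p = 0.880). The uninfarcted shift was -0.24 without CIH 3, and the infarcted shift 0.46 without MI 2. The passenger arm miR-210-5p ranged from 0 to 0.548 RPM in the sham hearts, so its uninfarcted shift of -0.23 rests on a few reads.

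The miR-15/16 family represses cyclins and other cell cycle genes and is known for limiting the growth of newborn heart muscle cells. Of its 12 tested arms 8 were lower with CIH in uninfarcted and higher in infarcted hearts, a share near that over all miRNAs (217 of 360), among them the 6 with the seed AGCAGCA, and 4 had the same sign in both settings. For miR-16-5p the values were 288, 369.9, 277, 513 and 285 RPM in sham and 185, 254, 165 and 256 RPM in CIH hearts. The 4 CIH hearts were all below the 5 sham hearts. In infarcted hearts the values were 482, 158, 196 and 429 RPM for MI and 217 to 824 RPM, with a median of 452 RPM, for MI+CIH, with wide overlap. The interaction was 1.39 ± 0.65 (SE; limma adjusted p = 0.880), 0.64 with median-of-ratios scaling and 1.16 without sham 1 and MI 2. The family's median interaction was 0.90, but 0.18 with median-of-ratios scaling, where 7 of the 12 were positive, and 5 of the 12 kept the pattern under all 6 alternatives. The infarcted shift of miR-16-5p, 0.72, was 0.44 without MI 2.

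The miR-17/92 cluster and its paralogs, which promote proliferation, had 6 of 9 tested arms with this pattern, near the share over all miRNAs, and 3 with the same sign. Their median interaction of 0.82 was 0.08 with median-of-ratios scaling. All 4 tested members with the seed AAAGUGC were among the 6; miR-93-5p, for example, had shifts of -0.71 and 0.65 and miR-106b-5p -0.96 and 0.50. The infarcted shift was 0.27 without MI 2 for miR-93-5p and 0.13 without MI 3 for miR-106b-5p. The uninfarcted shift of miR-106b-5p was -0.54 without CIH 3. miR-25-3p, of the same paralogous hairpin group but with another seed, had an interaction of 0.73, which turned to -0.02 with median-of-ratios scaling.

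The imprinted Dlk1-Dio3 region, whose many miRNAs are read from the maternal chromosome and are prominent in embryonic and mesenchymal tissue, was the largest group. Of the 36 tested miRNAs on the list for this region, 33 were lower with CIH in uninfarcted and higher in infarcted hearts. The same sign was found in 3 and the reverse in 0, and 0 passed the test. Under all 6 alternatives 16 of the 36 kept their direction. Relative to the medians over all miRNAs 24 had the common pattern and 2 the reverse. Median shifts were -0.43 and 0.63 and the median interaction 1.12, positive for 36 of 36; with median-of-ratios scaling it was 0.56, positive for 32. Without sham 1 and MI 2 it was 0.31, positive for 28. On chromosome 12 the members with the common pattern on the deposited scale were 9 of 9 in the run of hairpins that starts at position 109585818. In the run from 109709065 they were 26 of 29. These runs were counted by position and include tested miRNAs that are not on the list. The abundant miR-127-3p was at 833, 313, 170.1, 268 and 289 RPM in sham and 411, 169, 182 and 173 RPM in CIH hearts. It was at 3464, 237, 4105 and 589 RPM in MI hearts and at 661 to 6109 RPM, with a median of 3119.5 RPM, in MI+CIH hearts. Sham 1 was the high sham heart, and MI 2 lay among the uninfarcted ones. Its interaction was 1.37 ± 1.09 (SE), and 0.26 without those hearts. Without MI 2 alone its infarcted shift went from 0.81 to 0.03, and without sham 1 its uninfarcted shift from -0.57 to -0.23. miR-434-5p had shifts of -0.74 and 0.67, which were -0.23 without sham 1 and 0.36 without MI 2, and its interaction of 1.41 was 0.59 without both hearts. miR-411-3p had shifts of -0.66 and 0.68, and no single library moved either by more than 1.5 times.

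The 28 entries with the reverse pattern had a median level of 145 RPM, against 26.8 RPM for the 217. With entries that repeat the same reads counted once, in the total as well, they were 27 and held 33.9% of reads. Of this miR-1a-3p alone held 28.4% and the other 26 5.51%, while the common pattern held 41.5%. These shares are therefore higher than those read from RPM. miR-499-5p, made from an intron of the myosin gene Myh7b and typical of heart and slow muscle, had the lowest infarcted shift of the 28. Sham hearts had 1751, 2376, 3839, 3069 and 4208 RPM and CIH hearts 4396, 4348, 1923 and 4598 RPM. MI hearts had 1496, 3919.8, 1283 and 1202 RPM and MI+CIH hearts 419 to 1683 RPM, with a median of 719.8 RPM. CIH 3 was far below the other CIH hearts, MI 2 was far above the other MI hearts, and 0 of 7 MI+CIH hearts were above the MI mean. The shifts were 0.31 ± 0.50 (SE) and -1.10 ± 0.46, and the interaction -1.41 ± 0.68 (limma adjusted p = 0.880). It was -1.27 with the set term, -2.16 with median-of-ratios scaling and -0.84 without sham 1 and MI 2. The uninfarcted shift was 0.13 without sham 1 and 0.61 without CIH 3, and the infarcted shift -0.71 without MI 2.

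miR-1a-3p, the most abundant of the tested miRNAs and a repressor of growth genes in muscle, was at 189056, 268876, 267785, 272753 and 261221 RPM in sham hearts and at 245804, 281399, 314224 and 308132 RPM in CIH hearts. It was at 161002, 293893, 150799.6 and 287381 RPM in MI hearts and at 69203 to 262684 RPM, with a median of 141425 RPM, in MI+CIH hearts. All 7 MI+CIH hearts were below every MI heart of their own set, although the pooled ranges overlapped. Sets A and C hold a single MI heart each, and the share of all miRNAs with such a separation is not given here. Its interaction was -0.79 ± 0.50 (SE; limma adjusted p = 0.880). Its uninfarcted shift of 0.20 was 0.10 without sham 1. The entry miR-1b-5p repeats the same values within 0.224% and is not a separate result.

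The muscle list held miRNAs of every pattern. Of 9 muscle-enriched miRNAs tested, 2 (miR-1a-3p and miR-499-5p) had the reverse pattern, 1 (miR-133a-3p) the common one and 6 the same sign in both settings, with median shifts of -0.08 and -0.23. The median interaction was 0.03, positive for 5 of 9, and it turned to -0.59 with median-of-ratios scaling (1 of 9 positive), -0.39 without sham 1 and MI 2 (2 of 9) and -0.32 with the set term (4 of 9). miR-208a-3p, from the myosin gene Myh6, was lower with CIH in both settings (-0.30, but 0.02 without CIH 3, and -1.12), and the stress-induced miR-208b-3p was higher in both (0.55 and 0.70). The miR-30 family, rich in heart muscle, had 5 of 11 tested arms with the reverse pattern, 2 with the common one and 4 with the same sign. miR-30e-3p had shifts of 0.16 and -0.29, and miR-30e-5p, from the other arm of the hairpin, -0.65 and -0.61. Without sham 1 the uninfarcted shift of miR-30e-3p was -0.02, without MI 4 its infarcted shift was 0.03, and without MI 2 the infarcted shift of miR-30e-5p was -0.01.

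Other miRNAs with the reverse pattern that the rule named were as follows. miR-128-3p, known from neurons but also made in heart, was at 155, 198, 244, 338 and 279 RPM in sham and 413, 260.2, 322 and 289 RPM in CIH hearts, and its shifts were 0.43 and -0.33. miR-22-5p had shifts of 0.42 and -0.28, miR-149-5p 0.29 and -0.33, and miR-181a-2-3p 0.39 and -0.23. For miR-204-5p they were 0.31 and -0.09, and for miR-145a-3p 0.16 and -0.19. Leaving out 1 library at a time put the infarcted shift between -0.86 and 0.23 for miR-149-5p, -0.73 and 0.55 for miR-181a-2-3p, -0.51 and 0.41 for miR-204-5p and -0.47 and 0.28 for miR-145a-3p, so that the pattern of each rests on single libraries. For miR-128-3p it lay between -0.68 and -0.02, and for miR-22-5p between -0.64 and -0.0014. The SE of the interaction was larger than the interaction itself for miR-149-5p (-0.62 ± 1.25), miR-181a-2-3p (-0.62 ± 1.19), miR-204-5p (-0.40 ± 1.09) and miR-145a-3p (-0.35 ± 0.76).

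Levels of markers of other cell types are given beside these shifts. Summed over its list, the fibroblast and matrix level was 18294 to 102528 RPM in sham, 13532 to 17158 in CIH, 11877 to 22440 in MI and 10247 to 109934 in MI+CIH hearts. That sum is mostly miR-21a-5p itself (65.1% to 98.8% of it), and without it the list held 415 to 1958, 202 to 447, 393 to 4145 and 1359.9 to 7220.2 RPM in the same order. The leukocyte sum was 447 to 808, 380.1 to 740.0, 378 to 2945 and 1054 to 4488 RPM. Muscle-enriched miRNAs summed to 193857 to 278971, 253523 to 317903, 165022 to 301250 and 89542 to 269842 RPM, with the 3 lowest hearts all in MI+CIH. miR-1a-3p made up 77.3% to 98.8% of that sum. Without it the muscle list held 4801 to 7636, 3678 to 8476, 7357 to 24429 and 5013 to 24863 RPM in the same order. The medians were then 6526, 7650, 11328 and 9203 RPM, so the low MI+CIH sums reflect miR-1a-3p. Of the defining markers in the table, 8 of 10 fibroblast, 8 of 9 leukocyte and 6 of 6 erythrocyte miRNAs had reads in every library, while miR-206-3p was at 0 in 3. The part of cell composition in the shifts was not tested.

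**Figure D4:**
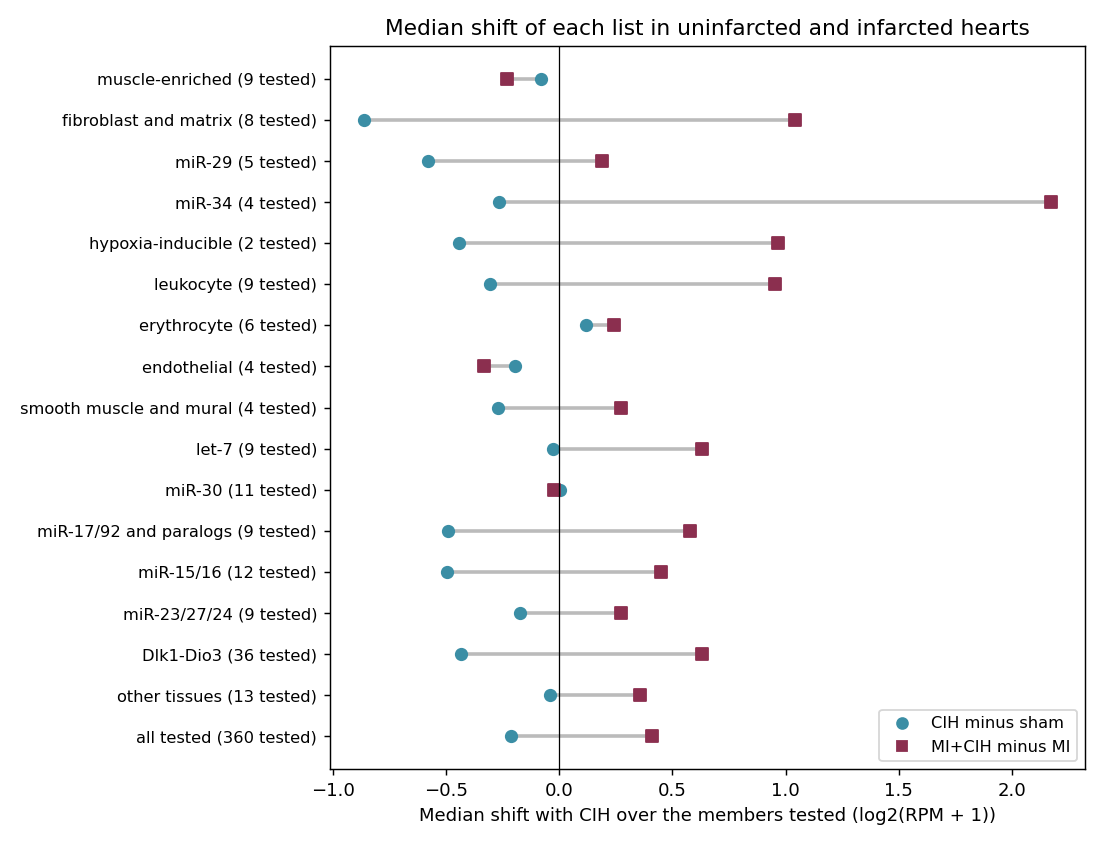
Median shift with CIH over the tested members of each list, in uninfarcted (circle) and infarcted (square) hearts, in log2(RPM + 1). The fibroblast and matrix list spans -0.86 to 1.04, the miR-34 list -0.27 to 2.17, and all 360 miRNAs -0.21 to 0.41.

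The remaining lists follow. let-7 had 6 of 9 members with the common pattern and a median interaction of 0.54, positive for 9 of 9, but for 3 of 9 with median-of-ratios scaling. miR-29, which represses collagens, had 4 of 5, with median shifts of -0.58 and 0.19; its median interaction of 0.77 was 0.02 with median-of-ratios scaling (3 of 5 positive), and 2 of the 5 kept the pattern under all 6 alternatives. The smooth muscle miRNAs miR-143 and miR-145 had 3 of 4, the miR-23/27/24 clusters 6 of 9, the erythrocyte miRNAs 2 of 6 and those typical of other tissues 5 of 13. The erythrocyte count includes miR-486a-5p and miR-486b-3p, which repeat the same reads within 4.45%. Among the endothelial miR-126 arms 0 of 4 had the common pattern and 1, miR-126b-5p, had the reverse, with a median interaction of -0.10, and -0.84 with median-of-ratios scaling. These 4 include miR-126a-5p and miR-126b-3p, which repeat the same reads within 0.351%. The median interactions of miR-23/27/24 (0.44), smooth muscle (0.54), erythrocyte (0.48) and other tissues (0.52) were below 0.63, the value over all 360, and each was negative with median-of-ratios scaling.

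For contrast, some of the largest infarcted shifts were in miRNAs whose shifts had the same sign on the deposited scale. miR-451a, a red cell miRNA, was the only one of 360 (0.278%) with all MI+CIH hearts above all MI hearts, and 0 of 360 (0%) had them all below. It stood at 916, 669, 95.7 and 763 RPM in MI and at 1076 to 5679.5 RPM, with a median of 2248 RPM, in MI+CIH hearts. Its uninfarcted shift was 0.03 and its interaction 2.40 ± 0.95 (SE; limma adjusted p = 0.880). The sign of that uninfarcted shift rests on single hearts: it was -0.41 without sham 1, while the infarcted shift stayed between 1.67 and 2.76 without each library in turn. The skeletal muscle miRNA miR-206-3p was at 0.14, 0, 4.74 and 0 RPM in the CIH hearts and at or below 0.183 RPM in all sham hearts. It ran from 0.138 to 370.2 RPM in MI and from 2.44 to 437 RPM in MI+CIH hearts. miR-101a-3p was lower with CIH in both settings (-0.66 and -0.57), but its infarcted shift turned to 0.08 without MI 2 and its uninfarcted shift was -0.13 without CIH 3.

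Arms of the same hairpin share a precursor. Of 86 hairpins with both arms tested, both arms had the common pattern in 46, the reverse in 1 (miR-30d) and the same sign in both settings in 11, and in 28 the arms fell into different classes. In 1 of these, miR-145a, the arms had opposite patterns, with interactions of 1.01 for miR-145a-5p and -0.35 for miR-145a-3p. Among seeds, 3 of 3 with CAGUGCA (miR-148a, miR-148b and miR-152) had the common pattern, and 6 of 9 with the let-7 seed GAGGUAG had it, near the share over all miRNAs. Of 4 with the miR-181 seed ACAUUCA, 0 had the common and 2 the reverse pattern. The run of hairpins on chromosome 17 that starts at position 17830194, which holds miR-99b, let-7e and miR-125a, had 6 of 6 with the common pattern; let-7e-5p, with shifts of -0.47 and 1.17, had the largest interaction of the 6 (1.64). Its shifts were -0.21 without sham 1 and 0.21 without MI 2.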

How the data were processed

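Small RNA libraries were made with a NEBNext kit from RNA that was extracted from frozen hearts with Trizol, per the labels' protocols. The submitters' processing notes name mm10, Bowtie and DESeq 1.8.3 with no role for each. The deposited values are RPM computed by the authors, reads of an entry per 1000000 reads summed over all entries. Reads that 2 entries repeat are in that sum for both. The values are named TPM, no length enters them, and 100% were whole multiples of 1 read (tolerance 0.05), so reads were recovered. Totals were 1991323 to 18138415 reads. limma 3.58.1 (R 4.3.3) was fitted to log2(RPM + 1), pseudocount 1, for the 360 miRNAs reaching 5 RPM in 4 or more libraries (2 of them predicted, at least 99.9% of reads). The 4 group means were fitted to the 20 libraries together, with 16 residual degrees of freedom, a trend, and two-sided p adjusted by Benjamini-Hochberg, threshold 0.05. edgeR 4.0.16 and DESeq2 1.42.0 on the recovered reads were alternatives. The fit was also run on simulated counts with a planted interaction. These held no library sets and no outlying hearts, so that run does not show how the fit handles such features.

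Members and lists were chosen with earlier results of these data known. miRNAs were named by a rule: the 3 smallest interaction p, at a mean of at least 50 RPM the 10 opposite-sign miRNAs of each direction and 5 of each same-sign direction with the largest smaller shift, examples of each list, and 7 in any case. miR-34b-3p, miR-34c-3p, miR-214-5p, miR-199a-3p, miR-146b-5p, miR-455-3p, miR-411-3p, let-7e-5p, miR-145a-5p, miR-106b-5p, miR-93-5p, miR-142a-3p, miR-363-3p, miR-375-3p, miR-208a-3p, the names at the sign limit and the exceptions within lists were chosen after their values were seen. Among those tested, 10 pairs of entries repeat the same reads within 5%, among them miR-1a-3p with miR-1b-5p. Library set and its combinations were alternatives, as were scalings, filters, pseudocounts, weights and leaving out libraries.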

Additional observations from a re-analysis of the deposited data

Results flagged for a closer look

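26 values of single hearts lay apart from the rest of their group, in 236 groups of named miRNAs tested by the gap to the nearest heart; chance alone flags about 1 in 20 groups. Sham 1 accounted for 11. It was the highest sham heart for miR-21a-5p (100570.5 RPM), miR-140-3p (4026 RPM), miR-214-3p (198 RPM), miR-434-5p (227 RPM), miR-199a-3p (1055 RPM), miR-146b-5p (194 RPM), miR-148a-5p (34.5 RPM), miR-208b-3p (41.7 RPM) and miR-455-3p (16.5 RPM). It was the lowest for miR-1a-3p (189056 RPM) and its second entry miR-1b-5p (188930 RPM).

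CIH 3 accounted for 10. It was the lowest CIH heart for miR-499-5p (1923 RPM), miR-101a-3p (2100.1 RPM), miR-126a-5p and its second entry miR-126b-3p (488.4 and 488.1 RPM), miR-29a-3p (115 RPM) and miR-148a-5p (3.58 RPM). It was the highest for miR-206-3p (4.74 RPM), miR-1981-5p (52.2 RPM), miR-34b-3p (2.71 RPM) and miR-34c-3p (2.32 RPM). The other 5 were miR-149-5p (894 RPM) and miR-127-3p (411 RPM), highest in CIH 1, miR-210-5p in CIH 4 (0.253 RPM, at 0 in the other CIH hearts), miR-451a, lowest in MI 3 (95.7 RPM), and miR-455-5p, highest in MI 4 (181 RPM). The cause of these values was not tested.

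miR-223-3p was picked out because all 4 CIH hearts were below the sham mean and all 7 MI+CIH hearts were above the MI mean. Its interaction was 1.60 and did not pass the limma test (adjusted p = 0.880).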

How the results depend on the processing

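The count of calls in the interaction stayed at 0 under every alternative except library set A only. That fit leaves 1 infarcted heart per group, whose spread is assumed to be that of the other groups. In it miR-142a-3p and miR-142b had an interaction of 3.53 with identical fitted values, so they are not separate results. Calls in MI+CIH against MI went from 0 to 1 with sample weights, 2 with the set term, 4 with the set term without sham 1 and MI 2, and 0 to 3 when leaving out 1 heart at a time (1 without MI 3, 3 without MI+CIH 1). Calls in CIH against sham went from 0 to 2 with sample weights and 1 with DESeq2. The 245 opposite-sign miRNAs became 610 with no filter (1416 tested) and 105 at a mean of at least 50 RPM (166 tested). The split of the common to the reverse pattern, 217 to 28, became 480 to 130 and 86 to 19 under those filters, 110 to 120 with median-of-ratios and 109 to 116 with TMM scaling. It was 129 to 107 with edgeR, 130 to 111 with DESeq2, 141 to 73 without sham 1 and MI 2, 220 to 45 in set A only, 174 to 50 with the set term without those hearts, and 114 to 132 with the set term and median-of-ratios scaling. Leaving out 1 heart at a time gave 14 to 69 miRNAs with the reverse pattern (14 without MI 3, 69 without MI 2); the cause of these moves was not tested. The combinations of the set term with another choice were added after seeing the data. The reverse pattern was also sensitive to MI 4 (43), CIH 3 (47) and MI+CIH 1, 3 and 7 (17, 45 and 16).

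For single miRNAs the interaction was recomputed, or both shifts where these had the same sign: 2603 values kept their sign and their side of the threshold, 118 changed sign and 2 came to pass the test (miR-206-3p in MI+CIH against MI, with sample weights and without MI 3). Among shifts outside these recomputed values, miR-34b-3p and miR-375-3p passed between the infarcted groups in the same settings. These were the set term, removal of MI+CIH 1, and the set term without sham 1 and MI 2. miR-34c-3p passed in the last 2 of these and miR-451a in the last. miR-208b-3p passed in CIH against sham with sample weights. The limma adjusted p of these calls ran from 0.0130 to 0.0449. Those with the set term are likely too small, since the sets were drawn from the tested values. miR-363-3p also passed in CIH against sham with sample weights (limma adjusted p = 0.000996). Without each library in turn 29 of 59 described miRNAs kept the signs of both shifts and 30 did not. The interactions of miR-21a-5p, miR-199a-5p, miR-214-3p, miR-140-3p, miR-34c-5p, miR-16-5p, miR-223-3p, miR-499-5p and miR-1a-3p kept their sign under every alternative run; miR-34c-5p kept it although its uninfarcted shift turned without sham 1. Values that changed sign follow, as interactions or as shifts for miRNAs whose shifts had the same sign; their cause was not tested. With set A only there was an interaction of -0.31 for miR-3470b and 0.19 for miR-27b-3p, and an infarcted shift of -0.14 for miR-1981-5p, -0.19 for miR-504-5p, 0.091 for miR-30e-5p, 0.89 for miR-101a-3p, 0.11 for miR-126b-3p, 0.11 for miR-126a-5p and -0.23 for miR-486a-3p. Sample weights gave an interaction of 0.015 for miR-145a-3p, -0.75 for miR-208b-3p and 0.18 for miR-27b-3p, an infarcted shift of 0.37 for novel_32 (a predicted entry), and an uninfarcted shift of -0.059 for miR-1981-5p. With median-of-ratios scaling there was an interaction of -0.56 for miR-208b-3p, -0.23 for miR-29c-5p, -0.16 for miR-143-3p, -0.017 for miR-25-3p and -0.39 for miR-24-3p, an infarcted shift of -0.080 for miR-92a-3p, -0.16 for miR-504-5p, -0.28 for miR-486a-3p and -0.25 for miR-195a-3p, and an uninfarcted shift of 0.10 for miR-192-5p. With TMM scaling there was an interaction of -0.53 for miR-208b-3p, -0.22 for miR-29c-5p, -0.16 for miR-143-3p, -0.0092 for miR-25-3p and -0.38 for miR-24-3p, an infarcted shift of -0.097 for miR-92a-3p, -0.17 for miR-504-5p, -0.30 for miR-486a-3p and -0.27 for miR-195a-3p, and an uninfarcted shift of 0.080 for miR-192-5p. Without sham 1 and MI 2 there was an interaction of -0.39 for miR-208b-3p and -0.20 for miR-24-3p, and an infarcted shift of -0.42 for miR-92a-3p, -0.18 for miR-328-3p, -0.55 for miR-504-5p, 0.076 for miR-101a-3p, -0.64 for miR-486a-3p and -0.12 for miR-195a-3p. The set term combined with median-of-ratios scaling gave an interaction of -0.29 for miR-208b-3p, -0.21 for miR-29c-5p, -0.18 for miR-25-3p and -0.37 for miR-24-3p, an infarcted shift of -0.29 for miR-92a-3p, -0.11 for miR-328-3p, -0.39 for miR-504-5p, -0.49 for miR-486a-3p and -0.20 for miR-195a-3p, and an uninfarcted shift of 0.10 for miR-192-5p. With the set as a term there was an infarcted shift of -0.075 for miR-504-5p and -0.17 for miR-486a-3p. The set term without sham 1 and MI 2 gave an interaction of -0.78 for miR-208b-3p and -0.089 for miR-24-3p, and an infarcted shift of -0.047 for miR-504-5p, -0.15 for miR-486a-3p and -0.050 for miR-195a-3p. DESeq2 gave an interaction of -0.10 for miR-29c-5p, -0.29 for miR-143-3p and -0.40 for miR-24-3p, an infarcted shift of -0.0049 for miR-486a-3p and -0.23 for miR-195a-3p, and an uninfarcted shift of 0.012 for miR-126b-3p, 0.013 for miR-126a-5p and 0.18 for miR-192-5p. With infarcted hearts of set B only there was an interaction of -0.51 for miR-208b-3p, and an infarcted shift of 0.057 for novel_32 and -0.068 for miR-195a-3p. edgeR gave an interaction of -0.093 for miR-29c-5p, -0.34 for miR-143-3p and -0.36 for miR-24-3p, an infarcted shift of -0.050 for miR-486a-3p and -0.23 for miR-195a-3p, and an uninfarcted shift of 0.17 for miR-192-5p. Leaving out 1 heart at a time gave interactions of -1.12 to 0.16 for miR-181a-2-3p, -0.63 to 0.12 for miR-145a-3p, -0.82 to 0.10 for miR-204-5p, -0.47 to 0.51 for miR-208b-3p, -0.087 to 0.91 for miR-143-3p, -0.026 to 1.11 for miR-25-3p, -0.27 to 0.22 for miR-27b-3p and -0.042 to 0.57 for miR-24-3p. For same-sign miRNAs it gave infarcted shifts of -0.42 to 0.86 for miR-92a-3p, -0.18 to 0.85 for miR-328-3p, -0.55 to 0.98 for miR-504-5p, -1.13 to 0.076 for miR-101a-3p, -2.59 to 1.01 for novel_32, -0.64 to 0.78 for miR-486a-3p and -0.36 to 0.91 for miR-195a-3p, and uninfarcted shifts of -0.096 to 0.74 for miR-206-3p, -0.17 to 0.47 for miR-1981-5p, -0.55 to 0.070 for miR-126b-3p, -0.55 to 0.070 for miR-126a-5p and -0.43 to 0.24 for miR-192-5p.

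Replicate numbers are shared between the groups in the labels, but they did not pair the libraries: same-numbered libraries had correlations of deviations from -0.711 to 0.867, over 0.1 in 10 of 25 pairs, and 4 libraries correlated best with their own number. With the replicate block the interaction gave 0 calls, as did both shifts, and 201 opposite-sign miRNAs, 179 to 22. Under the block the interaction was 0.31 for miR-149-5p, 0.53 for miR-181a-2-3p, 0.45 for miR-204-5p, -0.071 for miR-208b-3p and -0.36 for miR-29a-3p, and the infarcted shift 1.76 for novel_32.

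Depth limits miRNAs at a few RPM, such as miR-210-5p and the 3p arms of miR-34b and miR-34c, whose uninfarcted levels rest on a few reads. Group size limits the test: with 4 to 7 hearts per group and 3 library sets, the SE of the interaction was 0.50 for miR-1a-3p and 1.41 for miR-214-3p.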
